A study of Mus musculus with 8 samples.

Results

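Fatty acid desaturase and elongase genes were followed across the genomic binding of wild type KLF1 and of its E339K mutant in mouse erythroid cells. Desaturases place double bonds into fatty acyl chains: Fads1 and Fads2 encode the delta-5 and delta-6 desaturases of polyunsaturated fatty acid synthesis, Fads3 encodes a related desaturase, and Scd1 and Scd2 encode stearoyl-CoA desaturases, which make monounsaturated fatty acids. Elongases of the Elovl family carry out the condensing step that lengthens a fatty acyl chain: Elovl1 acts on saturated and monounsaturated very long chains, Elovl5 on polyunsaturated chains and Elovl6 on the long saturated and monounsaturated chains that de novo synthesis yields. Their products shape the fluidity of membranes, which matters to a red cell that must deform in flow. KLF1 is the zinc finger transcription factor that drives many erythroid genes and binds GC-rich sequences of the CACCC type.

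The set was chosen by name and holds 8 genes, Fads1, Fads2, Fads3, Scd1, Scd2, Elovl1, Elovl5 and Elovl6, of the 11364 genes listed in both gene tables. Its sites are those of the merged table of 5551 binding sites that have one of these genes as the closest transcription start site (TSS), and there were 13. The set was selected on results of these same data, in which the Fads2 site stood out for the mutant, so the values below are descriptions and no test was made on them.

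K1 cells are an immortalised fetal liver line that lacks KLF1 (Klf1-/-). K1-E339K-ER cells are K1 cells that carry E339K mutant mouse KLF1 joined to part of the estrogen receptor (ER) and delivered by a retroviral vector, so that 4-hydroxytamoxifen (4-OHT) brings the protein into the nucleus. K1-ER cells carry wild type KLF1 in the same form, and their libraries belong to earlier work and are not among the 8 samples of this series. For chromatin immunoprecipitation (ChIP-seq) with an antibody to ER, 1 clone of K1-E339K-ER cells was induced for 3 h with 200 nM 4-OHT and gave 1 ChIP library, pooled from 3 preparations, and 1 input library. For sequencing of newly made RNA labelled with 4-thiouridine (4sU) there were 3 K1 libraries, 2 given 200 nM 4-OHT and 1 labelled as ethanol, and 3 K1-E339K-ER libraries, each a different clone given 200 nM 4-OHT. No value of a single library is in the tables used here, so neither depth nor spread between replicates can be given. In 4sU-RNA over all libraries of the tables together, 11 of 11 erythroid markers were listed, with levels from 3.79 to 9.79 mean log2 CPM (read counts scaled to library size), Gata1 being the highest. Klf1 (6.84) was among them, but K1 cells lack KLF1 and the ER lines carry an introduced copy, so its level does not bear on cell identity. Of the lymphoid and hepatocyte markers 0 of 2 and 0 of 3 were listed, and the single fibroblast marker listed of 3, Col1a1, stood at −1.69. The myeloid markers Elane and Mpo (2 of 3) lay between 0.77 and 1.84, and the megakaryocyte markers Gp9 and Itga2b (2 of 3) between 1.79 and 5.30.

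Sequences at 5 of the 13 sites are shown first because they carry the contrasts described below. Each is taken from the mouse genome, build mm9, around the midpoint of the site and 5′ to 3′. The KLF1 motif was searched in 2 forms that differ at the fifth base. The purine form covers NGGGAGGGG, NGGGAGTGG, NGGGGGGGG and NGGGGGTGG, and the pyrimidine form covers NGGGCGGGG, NGGGCGTGG, NGGGTGGGG and NGGGTGTGG. Capitals mark matches to either form on either strand. In the Fads2 sequence they also include an overlapping purine match that needed any base to be allowed at the seventh position, and in the Elovl6 site at 1815 bp the capitals are such a looser match alone. A looser purine match in the Elovl1 sequence, CGGGGGCGG, is left in lower case.
Fads2, 259.5 bp upstream of the gene start, chr19:10176202-10176302, minus strand: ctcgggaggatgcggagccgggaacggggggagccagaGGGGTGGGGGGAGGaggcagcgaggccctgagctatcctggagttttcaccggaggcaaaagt
Scd2, 5826 bp upstream, chr19:44362290-44362390, plus strand: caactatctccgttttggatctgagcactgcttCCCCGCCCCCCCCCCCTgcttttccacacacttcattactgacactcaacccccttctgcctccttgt
Elovl1, 1568 bp downstream in an intron, chr4:118102216-118102305, plus strand: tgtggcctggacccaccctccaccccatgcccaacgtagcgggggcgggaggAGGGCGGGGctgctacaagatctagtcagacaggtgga
Elovl6, 1330 bp downstream in an intron, chr3:129236584-129236684, plus strand: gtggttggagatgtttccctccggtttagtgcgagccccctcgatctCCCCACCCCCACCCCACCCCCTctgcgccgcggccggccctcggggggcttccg
Elovl6, 1815 bp downstream in an intron, chr3:129237069-129237169, plus strand: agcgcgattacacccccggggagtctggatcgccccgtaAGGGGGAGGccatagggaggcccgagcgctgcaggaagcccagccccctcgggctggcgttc

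The 13 sites fell on the side of the mutant, of the wild type or of neither in like numbers. The measure is the concentration of each protein at a site, the log2 of its mean normalised read count, and a site was called for a protein when the linear concentrations differed by at least 4-fold. Of the 13 sites, 4 (30.8%) were higher for KLF1-E339K-ER, against 55.3% of all sites. Another 5 (38.5%) were higher for KLF1-ER, against 23.3% of all sites, and 4 (30.8%) were called for neither, against 21.4%. The 4 mutant sites belonged to Fads2, Scd2 and Elovl6, and the 5 wild type sites to Elovl1, Scd1 and Elovl6. The median concentration over the 13 sites was 5.30 for KLF1-ER and 5.13 for KLF1-E339K-ER, where all sites had medians of 2.82 and 4.86. The median difference, mutant minus wild type, was 0.73 on the log2 scale over the 13 sites and 2.60 over all sites. With the difference centred on that median of all sites, 3 sites were called for the mutant and 6 for the wild type, and the share of all called sites that went to the mutant was 42.8% in place of 70.3%.

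**Figure D1:**
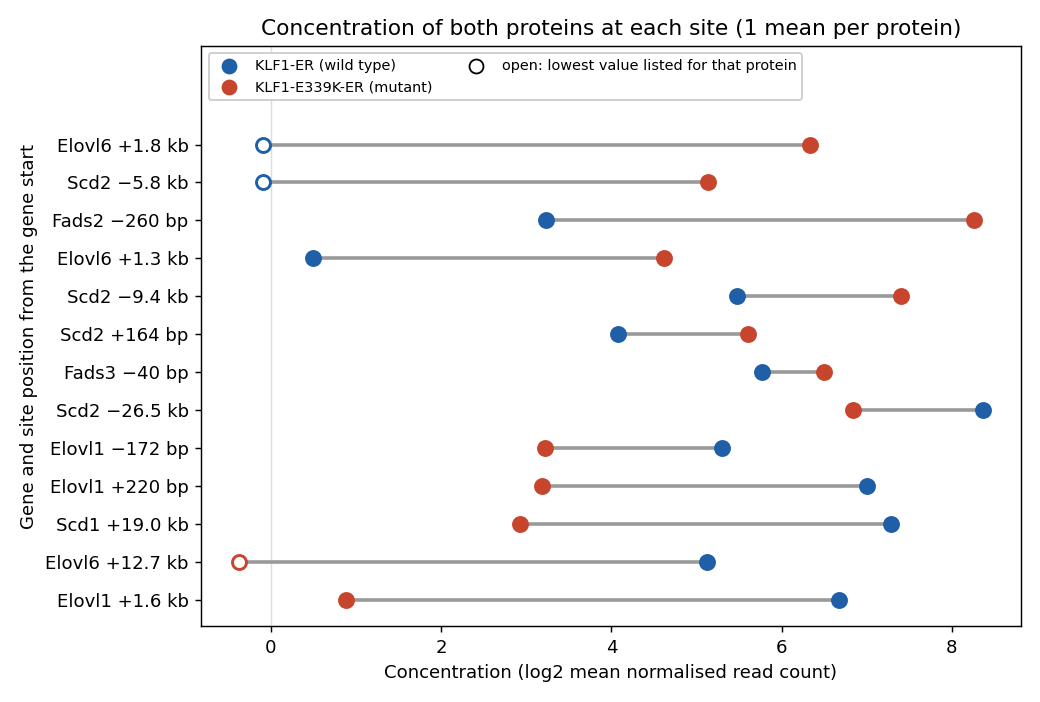
Concentration (log2 mean normalised read count, horizontal axis) of KLF1-ER in blue and KLF1-E339K-ER in red at each of the 13 sites, ordered by their difference, with each site named by gene and distance from the gene start. There is 1 mean per protein and no error bar, and open circles stand at the lowest value listed for that protein; Fads2 has the highest mutant point (8.26) and the Scd2 site farthest upstream the highest wild type point (8.37).

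**Figure D2:**
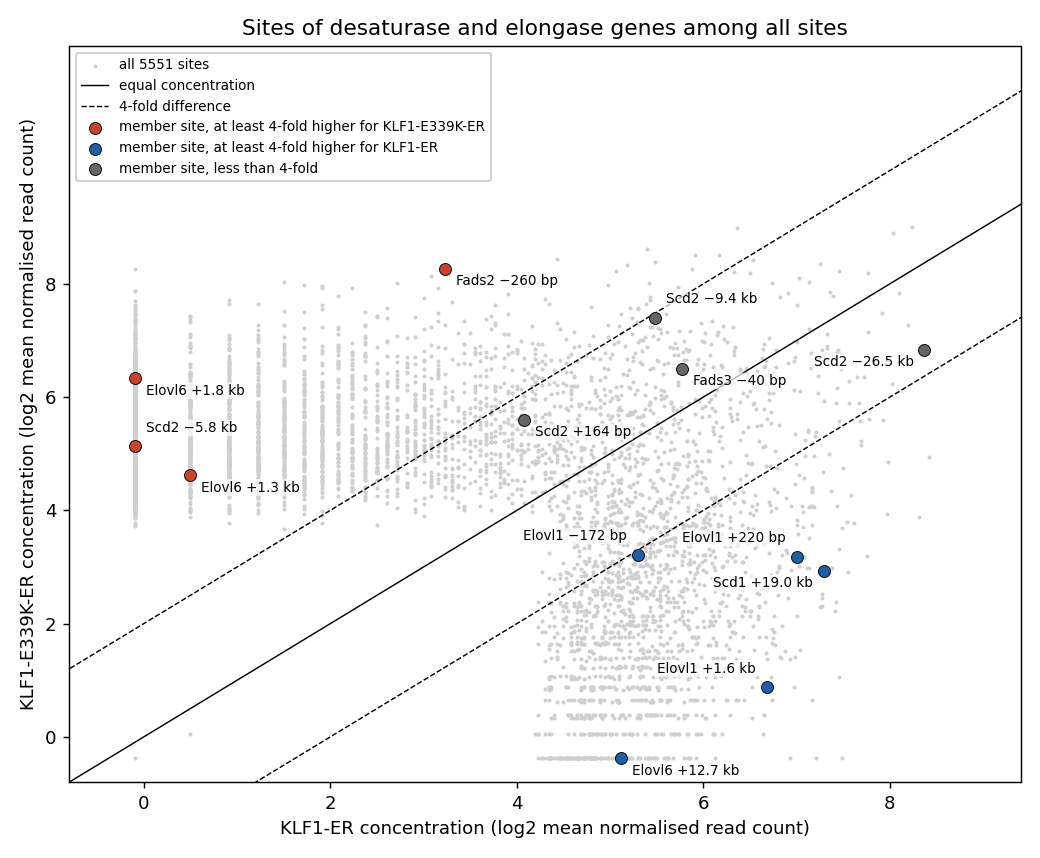
KLF1-ER (horizontal axis) against KLF1-E339K-ER concentration (vertical axis), both as log2 mean normalised read count, for all 5551 sites in grey and the 13 desaturase and elongase sites in colour. The solid line marks equal concentrations and the dashed lines a 4-fold difference; 4 coloured points lie above the upper dashed line, 5 below the lower one and 4 between.

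Among the front-end desaturases, Fads2 had a single site, at its promoter. The site ran from chr19:10175918-10176587 across the gene start and its midpoint lay 259.5 bp upstream of the TSS, outside any annotated transcript. KLF1-ER stood at 3.23 and KLF1-E339K-ER at 8.26, a difference of 5.03 or 32.7-fold. In mutant concentration it was number 13 of the 5551 sites, and number 5 of the 2190 sites within 1 kb of a TSS. By difference it was only number 979, and of the 989 sites with a difference at least as large 799 had KLF1-ER at the lowest concentration listed. Where neither protein was at its lowest value (3981 sites) it was number 190. Of the 28 sites with a mutant concentration of at least 8, 5, Fads2 included, had a difference at least as large as that of Fads2. The site was 670 bp wide, wider than 97.5% of sites.

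Fads3 lies beside Fads2 and also had its single site at the promoter, with a different balance. The site at chr19:10115590-10116407 had its midpoint 39.5 bp upstream of the TSS and stood at 5.77 for KLF1-ER and 6.50 for KLF1-E339K-ER. The difference of 0.73, or 1.66-fold, fell short of a call. Fads1, on the other side of Fads2, had no site for which it was the closest TSS, although Fads1 RNA was measured at a level like that of Fads3.

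The stearoyl-CoA desaturases showed the highest wild type concentrations of the set. Scd2 had 4 sites, a number reached by 169 (4.6%) of the 3670 genes named in the site table. The farthest, chr19:44341362-44341951, lay 26509.5 bp upstream of the TSS, and its KLF1-ER concentration of 8.37 was number 2 of all 5551 sites. KLF1-E339K-ER stood there at 6.84, 2.89-fold lower and thus not a call. At the 3 sites nearer to the gene the mutant was the higher, although with differences centred on the median of all sites only the one at 5826 bp remained higher for the mutant. At 9380.5 bp upstream (chr19:44358487-44359084) the values were 5.48 for KLF1-ER and 7.40 for KLF1-E339K-ER, 3.78-fold apart. A predicted miRNA gene, AC123853.1, starts within 2 kb of that site. At 5826 bp upstream (chr19:44362181-44362499) KLF1-ER was at its lowest listed value, −0.09, and the mutant at 5.13, the only one of the 4 sites that was called. The site over the first exon and untranslated region, 164.5 bp downstream of the TSS (chr19:44368118-44368543), stood at 4.08 and 5.60, 2.87-fold apart.

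Scd1 lies on the same chromosome in the opposite orientation and had 1 site, beyond the end of the gene. The site at chr19:44463016-44463441 was 18970.5 bp downstream of the TSS, in intergenic sequence. KLF1-ER stood at 7.29, number 54 of all sites, and KLF1-E339K-ER at 2.93, 20.5-fold lower. Scd1 and Scd2 therefore had sites on opposite sides of the 4-fold limits, for Scd2 only at the site at 5826 bp, where KLF1-ER was at its lowest listed value. This site and the 2 Scd2 sites farthest upstream shared sequence. The Scd1 site matched the Scd2 site at 9380.5 bp with 92.0% identity over 113 aligned bases and the one at 26509.5 bp with 90.1% over 81, both in opposite orientation on the chromosome. Those 2 Scd2 sites matched each other with 85.6% identity over 111 bases. The longest run that the trio held without a mismatch was 24 bases, printed below. It lay at chr19:44341599-44341622 and chr19:44358805-44358828 on the plus strand and at chr19:44463094-44463117 on the minus strand. No other of the 5551 sites contained this run, but it was picked from the trio, so its absence elsewhere tests nothing.
Shared run of the Scd1 and Scd2 sites: cagccaatcagcagccgcgctgcg
The 3 sites differed in balance, with 4-fold calls for the wild type at Scd1 and for neither protein at the 2 Scd2 sites.

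Elovl1, the elongase of very long saturated chains, was on the wild type side throughout. Its 3 sites all passed the 4-fold limit for KLF1-ER. The promoter site, chr4:118100370-118100683, with its midpoint 171.5 bp upstream of the gene start, stood at 5.30 for KLF1-ER and 3.22 for KLF1-E339K-ER, 4.23-fold apart. That is just inside the limit, and the 8-fold limit left it out. The intronic site 219.5 bp downstream, chr4:118100760-118101075, stood at 7.00 and 3.18, 14.1-fold apart. The second intronic site, chr4:118102110-118102422, 40 bp upstream of an internal TSS, stood at 6.68 and 0.88. Its ratio of 55.7-fold was the largest toward the wild type in the set among sites where neither value was the lowest listed, and its difference ranked 39 of all sites in that direction.

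Elovl6, the elongase that extends palmitate, held sites on both sides of the limits within a single gene. At chr3:129236458-129236810, 1330 bp into the gene, KLF1-ER stood at 0.50, close to its lowest listed value, and KLF1-E339K-ER at 4.62, 17.4-fold apart. At chr3:129236960-129237278, 1815 bp in, KLF1-ER was at its lowest listed value of −0.09 and KLF1-E339K-ER at 6.33. The third site, 12695.5 bp in, was the reverse, with KLF1-ER at 5.12 and KLF1-E339K-ER at its own lowest value of −0.38. All 3 lie in introns. Such a mix was not particular to Elovl6: of the 1103 genes with at least 2 sites, 275 (24.9%) had sites past 4-fold in both directions. Elovl5, the elongase of polyunsaturated chains, had no site.

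**Figure D3:**
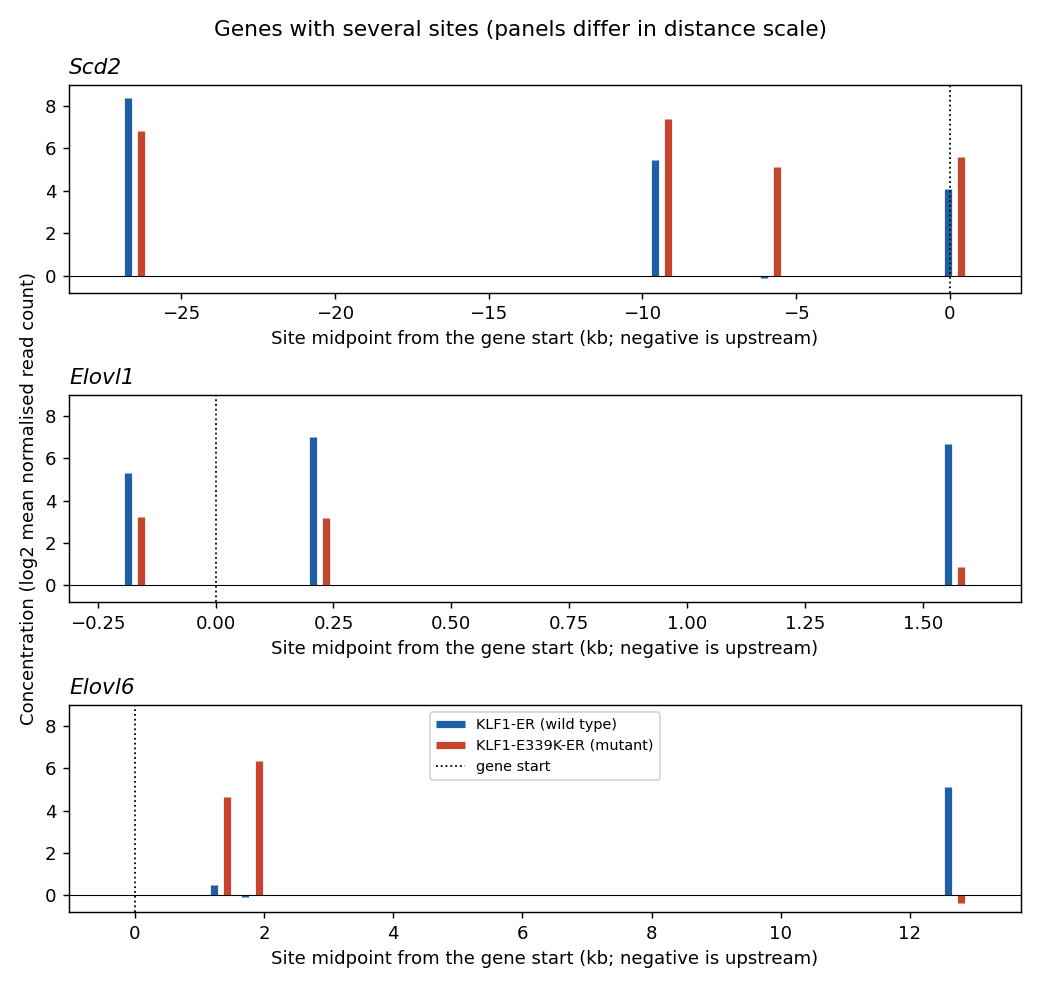
Concentration (log2 mean normalised read count, vertical axis) of KLF1-ER in blue and KLF1-E339K-ER in red against the distance of the site midpoint from the gene start in kb, for the 3 genes with several sites. Bars are set slightly apart to either side of the midpoint and each panel has its own distance scale; blue is the taller bar at all 3 Elovl1 sites, and at Elovl6 red is taller at the 2 sites near the start and blue at the third.

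The motif forms were set against the side of each site next, within 50 bp of the midpoint on both strands. The purine form was present at 2 of the 13 sites and the pyrimidine form at 6, while 7 held neither. Over all sites the shares were 35.5%, 35.3% and 42.2%. The purine form was found in 46.3% of all sites called for the mutant and in 15.1% of those called for the wild type, and the pyrimidine form in 21.8% and 62.8%. Within 50 bp, both sites with the purine form were mutant sites, the Scd2 site at 5826 bp and the Elovl6 site at 1330 bp. Both windows also held a pyrimidine match. The Elovl6 window is a run of overlapping matches, with GGGGTGGGG and TGGGGGTGG among them on the minus strand. Of the 5 wild type sites, 2 held the pyrimidine form, among them the Elovl1 site at 1568 bp with AGGGCGGGG 6 bp from the midpoint. The other 3 held neither form. Within 100 bp the sites that gained a purine match were not mutant sites. They were the wild type Scd1 site (TGGGGGTGG, 93 bp from the midpoint) and 2 Scd2 sites called for neither. Those were the Scd2 sites at 26509.5 bp (CGGGGGTGG, 93 bp) and 164.5 bp (AGGGGGGGG, 70 bp). The Scd1 word was the only match to either form over that whole site.

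The Fads2 site, which had the highest mutant concentration of the set, held no purine match within 50 bp. It held the pyrimidine word GGGGTGGGG, 8 bp from the midpoint. Farther out in this wide site lay the purine words AGGGAGGGG at 186 bp and TGGGAGGGG at 308 bp. Overlapping purine matches in a run of G lay at 328 to 331 bp, beside the pyrimidine word GGGGCGGGG at 324 bp. Since several windows held words that missed the motif at the seventh base alone, the search was repeated with any base there, a choice made after the data were seen. It then found GGGGGGAGG beside the midpoint of the Fads2 site, overlapping the pyrimidine word, and AGGGGGAGG in the Elovl6 site at 1815 bp. With this looser search the purine form was at 4 of the 4 mutant sites and the pyrimidine form at 3 of them. The pyrimidine form was at 5 of the 5 wild type sites. The wild type Elovl1 site at 1568 bp also held a looser purine word, CGGGGGCGG, 7 bp from the midpoint. Because the seventh base was freed after words in these windows had been seen, these counts follow in part from that choice. Their difference from the shares of other sites, given next, was not tested. The looser purine form was in 61.9% of all sites called for the mutant and 23.9% of those called for the wild type. The looser pyrimidine form was in 27.4% and 66.2%. Over all 13 sites the purine form was then at 5 and the pyrimidine form at 11, against 48.8% and 40.6% of all sites. Only the Scd2 site at 9380.5 bp held neither form. Farther out that site held the pyrimidine word GGGGTGGGG 150 bp from the midpoint, overlapping the purine word AGGGGGTGG at 152 bp, and the purine word GGGGAGGGG at 255 bp.

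The promoter windows of the genes themselves, 250 bases before to 50 after the TSS, were searched in the same way. The purine form was present in 23.2% and the pyrimidine form in 34.8% of the 22367 protein-coding genes. Fads3 held 8 purine and 2 pyrimidine matches, the purine ones being overlapping positions in 1 run of G and not separate motifs. Elovl1 held 1 of each, Fads1, Scd2 and Elovl6 held 1 purine match, and Fads2, Scd1 and Elovl5 held 0 of either. The Fads2 words beside the midpoint of its site lie just beyond this window, and those farther out lie farther upstream. The 101 bases around the midpoint were GC-rich in the set, with a median of 69.3% G and C (53.5% to 74.3%), where the median of all sites was 63.4%.

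All 8 genes were transcribed in these cells. The level is the mean log2 CPM over all libraries of the gene tables, divided by the length of the gene with its introns, so that genes can be compared, and it carries no error. Elovl1 was the highest at 5.31 log2 CPM per kb, above 97.6% of the genes listed, followed by Scd2 at 5.00. Scd1 stood at 3.23 and Fads2 at 2.40. Fads3 and Fads1 both stood at 2.35, and Elovl6 at 1.95. Elovl5 was the lowest at 0.92, above 51.7% of genes. All 8 levels were above the median of all genes, 0.82, and the distance from highest to lowest was 4.39 on the log2 scale. Which neighbours in this order differ beyond the spread of the libraries cannot be said from means alone. Without division by length the order changes, with Scd2 at 8.73 and Elovl6, a gene of 106108 bases, at 8.68 mean log2 CPM as the highest and Fads1 at 6.15 as the lowest. The genes without a site, Fads1 and Elovl5, were among the lower ones on the scale per kb, but Elovl6, with 3 sites, was below Fads1. Genes with 3 or 4 sites lay anywhere from Elovl6 to Elovl1 on that scale. Without division by length Elovl5 (6.99) was above Scd1 (6.96) and Fads3 (6.53), which both had a site.

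**Figure D4:**
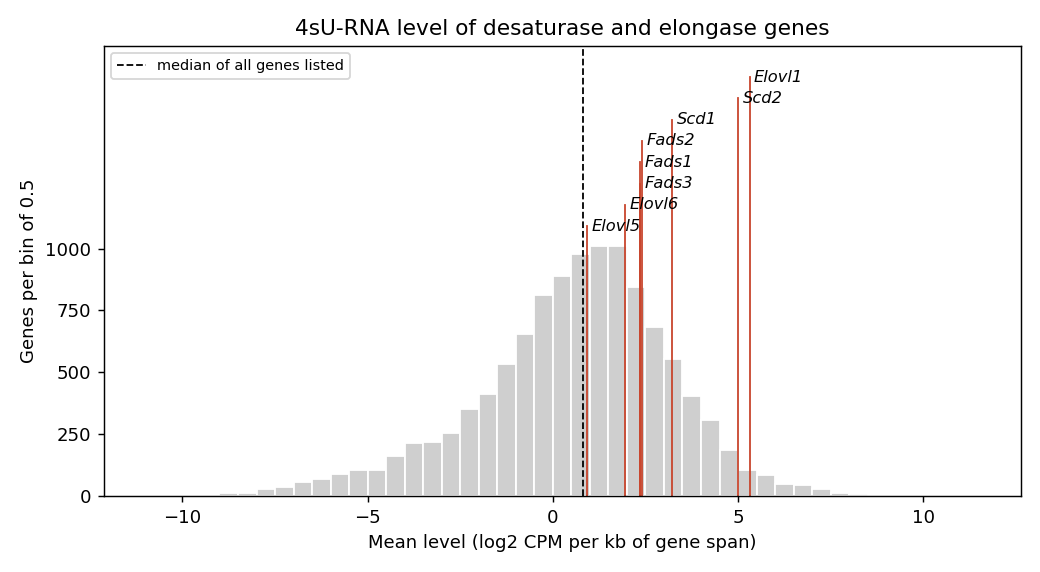
Number of genes (vertical axis) by mean 4sU-RNA level in log2 CPM per kb of gene span (horizontal axis) for the 11364 listed genes in grey, with the 8 desaturase and elongase genes as red lines whose height has no meaning. All 8 lines lie to the right of the dashed median of 0.82, from Elovl5 at 0.92 to Elovl1 at 5.31.

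The rest of lipid synthesis was taken from lists of 54 genes, members included, of which 44 were in the gene tables. A site within 10 kb was found for 15 (34.1%), against 21.3% of all genes, and without the members, which were in part picked for their sites, for 10 of 36 (27.8%). The 13 sites of these 10 genes within 10 kb comprised 8 called for KLF1-E339K-ER, 2 for KLF1-ER and 3 for neither. Of all sites within 10 kb of a TSS 53.9% were called for the mutant and 22.8% for the wild type, so the mutant share was near that background. The 2 wild type sites were those of Srebf2, the transcription factor of sterol synthesis, 6 bp from its TSS with 6.48 for KLF1-ER and 3.53 for KLF1-E339K-ER, and of Degs1, the dihydroceramide desaturase, with 5.02 and 1.05 at its promoter. Degs1 also had a mutant site, with 3.00 for KLF1-ER and 5.79 for KLF1-E339K-ER 1443.5 bp from its TSS, and another site called for neither.

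Of the 9 genes listed under de novo fatty acid synthesis, 3 (33.3%) had a site within 10 kb, against 21.3% of all genes. Each of these sites was called for the mutant, where 53.9% of all such sites were. The other 6, Acaca and Fasn among them, had none. Acly, which makes cytosolic acetyl-CoA from citrate, had KLF1-ER at the lowest value of −0.09 and KLF1-E339K-ER at 4.51. Slc25a1, the mitochondrial citrate carrier, stood at 0.50 for KLF1-ER, close to that lowest value, and at 5.25 for KLF1-E339K-ER. Acacb, an acetyl-CoA carboxylase, stood at 2.08 and 4.93. Acacb had 2 more sites beyond 10 kb, at 5.84 and 4.06 and at 5.55 and 4.81, both short of a call. Tecr, the enoyl-CoA reductase that completes each elongation cycle, stood at −0.09 and 5.49 at its promoter. Cyb5r3, the cytochrome b5 reductase that feeds electrons to desaturases, had a mutant site at 1.50 and 5.91 and a shared one at 5.43 and 6.49. Fads6 (2.72 and 5.20) and Insig2, an inhibitor of SREBP processing (−0.09 and 4.37), were mutant sites at promoters. Acsl1, an acyl-CoA synthetase, stood at 4.53 and 2.81, short of a call.

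The sites most like that of Fads2 were sought among those within 1 kb of a TSS, by the distance between sites on the 2 concentration axes. The nearest was at Set, with 3.43 for KLF1-ER and 8.03 for KLF1-E339K-ER, 0.30 log2 units away. Prr12 (3.00 and 7.75) followed at 0.56, then Azin1 (3.16 and 7.34) at 0.92, Rreb1 (3.43 and 7.34) at 0.94 and Ctdsp1 (3.72 and 7.44) at 0.96. None of the 5 held a strict match of either form within 50 bp of the midpoint, whereas Fads2 held a pyrimidine one. With any base at the seventh position Set and Azin1 held both forms, Prr12 only the pyrimidine form, and Rreb1 and Ctdsp1 neither.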

How the data were processed

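Per the labels, 4sU-labelled RNA of K1 and K1-E339K-ER cells (500 µM 4sU for 30 min) and KLF1-E339K-ER ChIP DNA were sequenced on an Ion Proton. The authors mapped reads to mm9 with TMAP and, for RNA, TopHat2 2.0.10, removed duplicate and multi-mapped ChIP reads, called sites with MACS2 and GEM, counted them in DiffBind and fitted gene tables with limma-voom. The deposited log2 values used here are the mean log2 CPM of each gene over all libraries, listed identically in both gene tables, and the log2 concentration of each protein at each site, 1 mean per protein, rounded so that a difference can be off by 0.01. Both gene tables and the site table also hold the authors' comparisons (fold changes, t, p-values, FDR); these columns were not used, so no response of RNA to induction is given. Sites were joined to genes by the closest TSS named in the table, whose positions equal those of GENCODE M1 on NCBIM37 (mm9). Motifs were searched in that genome with pysam 0.24.0, and local alignments were made with Biopython 1.88. The motif search was tested on motif words planted in simulated sequence that could hold no other match. That test covers the recovery of planted words and not the search in G-rich sequence. The sequence of 1 Elovl6 site is not reported here. Depth is not given in the tables, so its effect on a concentration is unknown, and no test was made.

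Members, gene lists and markers were chosen with earlier results of these data known. Named are all 8 members and their sites, listed lipid genes with a site within 10 kb, and the 5 sites nearest to that of Fads2. Alternatives were other fold limits, centring, filters on low concentrations, other distances to the TSS, levels without length, other motif windows and, added after the data were seen, any base at the seventh motif position.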

Additional observations from a re-analysis of the deposited data

How the results depend on the processing

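The counts of 4 mutant and 5 wild type sites rest on few sites and on concentrations without replicates. At a 2-fold limit they were 6 and 6, and at 8-fold 4 and 4. Centring on the median of all sites gave 3 and 6, moved the median difference to −1.87, and turned the sign of Fads3 and of the Scd2 sites at 9380.5 bp and 164.5 bp, none of them called. Leaving out sites at the lowest listed concentration left 2 and 4 of 10 sites, and a mean concentration of at least 4 left 1 and 3 of 8; the median difference was −0.40 in both. Within 10 kb of a TSS, named or annotated, 4 and 3 of 10 sites remained, with a median of 1.72. The members' median percentile of level was 76.7 per kb and 85.5 without length. Sites with a purine match numbered 2 within 50 bp, 5 within 100 bp, 9 over the whole site and 5 with any seventh base, and those with a pyrimidine match 6, 6, 9 and 11. Fads2 was called for the mutant under every alternative run that kept its site. The set was selected with that site standing out, so this is no independent support. Centring alone brought its difference near the 4-fold limit, from 5.03 to 2.43 on the log2 scale. No paired analysis was possible because the tables hold no value per library, and for the same reason no library could be left out.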
